A study of Mus musculus with 9 samples.

Results

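Dlx1, Dlx2, Dlx5, Dlx6, Gsx2, Gad1, Gad2 and Sp8 are genes of the GABAergic lineage, which starts from progenitors of the ventral telencephalon. They were chosen by name, with no measured value in the rule, but with earlier results of these data known, and the study itself examined Dlx2. Each was found once among 27095 loci. All 8 had a mean of at least 1 FPKM (fragments relative to exon length and sequencing depth), as did 15535 loci in all. The RNA came from wild-type mouse fetuses on gestational day 17, of the strain C57BL/6 in the labels and C57BL/6J in the methods, and the tissue is given as cortex in the methods and as fetal brain in the labels. The control group was 3 fetuses of dams injected with lactated Ringer's solution on gestational day 7. The EtOH-exposed groups were 3 unaffected and 3 affected fetuses of dams given 2.9 g/kg EtOH by intraperitoneal injection on that day. Affected fetuses were those scored with ocular and cortical patterning defects, so that affected and unaffected fetuses differed by this score and not by dose. The study reports that most of its affected samples were female, and the sex of the sequenced fetuses is not given in the sources used here. The table used here holds 1 value per locus and group, which the authors' software took over the 3 fetuses. No error between fetuses and no test could therefore be computed, and every difference here is a difference between group values, not shown to exceed the spread between fetuses.

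During forebrain development, most GABAergic neurons arise in the ganglionic eminences, ventral swellings that give rise to the striatum and also send interneurons into the cortex by tangential migration. The homeobox gene Gsx2 acts in progenitors of the lateral eminence, where it promotes a ventral identity and precedes the Dlx genes. Dlx1 and Dlx2 act in progenitors and migrating cells, Dlx5 and Dlx6 follow them in later precursors, and Sp8 marks interneurons of the dorsal lateral and caudal eminences. Gad1 and Gad2 encode both forms of glutamate decarboxylase, the enzyme that makes GABA. The Dlx genes lie in pairs of opposite strands that face each other across a short gap. By the GENCODE annotation of the mouse genome build mm10 (GRCm38), 9426 bases lie between Dlx1 and Dlx2 on chromosome 2 and 9236 bases between Dlx6 and Dlx5 on chromosome 6.

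Promoter sequences of 300 bases, from 250 before to 50 after a RefSeq transcription start (GRCm38.p6), were matched by symbol for 6 of the 8 genes. Those of Dlx2 and Gsx2 are shown because, of the 8 genes, these had the largest log2 differences of affected from control fetuses, and that of Dlx1 because it is the neighbour of Dlx2 with another pattern. The Dlx2 sequence is the minus strand of chr2:71546705-71547004, the Gsx2 sequence the plus strand of chr5:75075351-75075650 and the Dlx1 sequence the plus strand of chr2:71529195-71529494. Capitals mark matches, on either strand, to 4 motifs picked after the sequences had been seen: the E-box CACGTG, the CCAAT box, which reads ATTGG on the other strand, the TATA motif TATAAA and the homeodomain core TAATTA.

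Dlx2: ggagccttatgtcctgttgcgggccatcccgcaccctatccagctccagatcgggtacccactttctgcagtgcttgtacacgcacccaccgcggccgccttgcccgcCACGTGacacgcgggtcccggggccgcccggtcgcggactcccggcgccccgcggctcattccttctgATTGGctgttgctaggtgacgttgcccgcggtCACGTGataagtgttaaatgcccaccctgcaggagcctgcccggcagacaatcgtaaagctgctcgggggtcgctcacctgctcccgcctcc

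Gsx2: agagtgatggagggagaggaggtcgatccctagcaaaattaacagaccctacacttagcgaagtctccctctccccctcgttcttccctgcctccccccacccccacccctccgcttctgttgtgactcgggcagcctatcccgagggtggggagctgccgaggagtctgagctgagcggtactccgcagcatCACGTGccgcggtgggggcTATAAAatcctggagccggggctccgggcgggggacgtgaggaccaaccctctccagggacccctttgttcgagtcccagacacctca

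Dlx1: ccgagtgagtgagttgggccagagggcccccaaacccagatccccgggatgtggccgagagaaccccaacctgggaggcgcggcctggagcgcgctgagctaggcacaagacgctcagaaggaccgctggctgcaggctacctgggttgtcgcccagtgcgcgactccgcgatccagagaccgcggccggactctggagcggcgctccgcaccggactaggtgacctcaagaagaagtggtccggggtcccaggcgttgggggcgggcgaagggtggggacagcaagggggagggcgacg

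The Dlx2 promoter held CACGTG at 2 places and the CCAAT box at 1. The Gsx2 promoter held CACGTG at 1 place, followed closely by TATAAA. The Dlx1 promoter held none of the 4 motifs. Its sequence lies inside the Dlx1 locus, which begins at chr2:71528413, and bases before that start were not examined. Over 32851 mouse promoters of the same length, 7.15% held CACGTG, 37.4% CCAAT, 13.6% TATAAA and 5.29% TAATTA. A match of letters is no evidence of binding.

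Gsx2 (locus chr5:75075601-75077893, plus strand) had the lowest level of the 8 genes, with 2.29 FPKM in the control group, 3.32 in the unaffected group and 3.19 in the affected group. Both exposed groups were above control, 1.45-fold in unaffected and 1.39-fold in affected fetuses. On the log2 scale these differences were 0.53 and 0.48, above those of 97.0% and 94.6% of the loci compared. The affected and unaffected groups differed by only -0.06 on the log2 scale. In bulk tissue, fewer or more cells of a type and less or more RNA per cell cannot be told apart.

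Dlx2 (locus chr2:71543408-71546754, minus strand) was at 33.1 FPKM in the control group, 41.3 in the unaffected group and 44.4 in the affected group. It was the only one of the 8 genes with its highest value in the affected group. The log2 difference from control was 0.32 in unaffected and 0.42 in affected fetuses, above 94.2% and 93.0% of loci. Dlx1 (locus chr2:71528413-71537891, plus strand) was at 41.3 FPKM in the control group, 45.9 in the unaffected group and 41.0 in the affected group. Its log2 difference from control was 0.15 in unaffected and -0.01 in affected fetuses, so the affected value lay at the control level where that of Dlx2 did not. Within a group, the ratio of Dlx2 to Dlx1 was 0.802 in the control group, 0.900 in the unaffected group and 1.09 in the affected group. Dlx2 was thus the lower of the pair in control and unaffected fetuses and the higher in affected fetuses. This ratio does not depend on how the groups are scaled. The Dlx1 locus of the table runs beyond the end of the annotated gene at chr2:71528113-71533981 and overlaps Dlx1as on the opposite strand. What part of the Dlx1 value comes from outside the gene was not tested.

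Dlx5 (locus chr6:6877805-6882068, minus strand) was at 31.8 FPKM in the control group, 39.0 in the unaffected group and 35.5 in the affected group. Dlx6 (locus chr6:6818993-6871632, plus strand) was at 14.4, 19.8 and 14.9 FPKM. Both were highest in the unaffected group, and Dlx6 was close to control again in affected fetuses. The log2 difference from control in unaffected fetuses was 0.29 for Dlx5 and 0.46 for Dlx6, and in affected fetuses 0.16 and 0.05. The Dlx6 locus of the table is longer than the annotated gene at chr6:6863334-6868568 and also spans antisense transcripts. The ratio of Dlx5 to Dlx6 was 2.203 in the control group, 1.97 in the unaffected group and 2.38 in the affected group.

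Sp8 (locus chr12:118846329-118852578, plus strand) was at 4.50 FPKM in the control group, 4.94 in the unaffected group and 4.28 in the affected group, differences of 0.13 and -0.07 from control on the log2 scale. Among the enzymes of GABA synthesis, Gad1 (locus chr2:70489940-70602026, plus strand) was at 23.2, 23.9 and 20.9 FPKM and Gad2 (locus chr2:22621465-22693877, plus strand) at 11.8, 13.4 and 12.8 FPKM. In the affected group Gad1 had its lowest value, while Gad2 lay between its control and unaffected values. Gad1 differed from control by 0.04 in unaffected and -0.16 in affected fetuses, and Gad2 by 0.18 and 0.12. The Gad1 locus of the table also spans the neighbouring gene Erich2, while the annotated Gad1 gene lies at chr2:70553072-70602014.

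**Figure D1:**
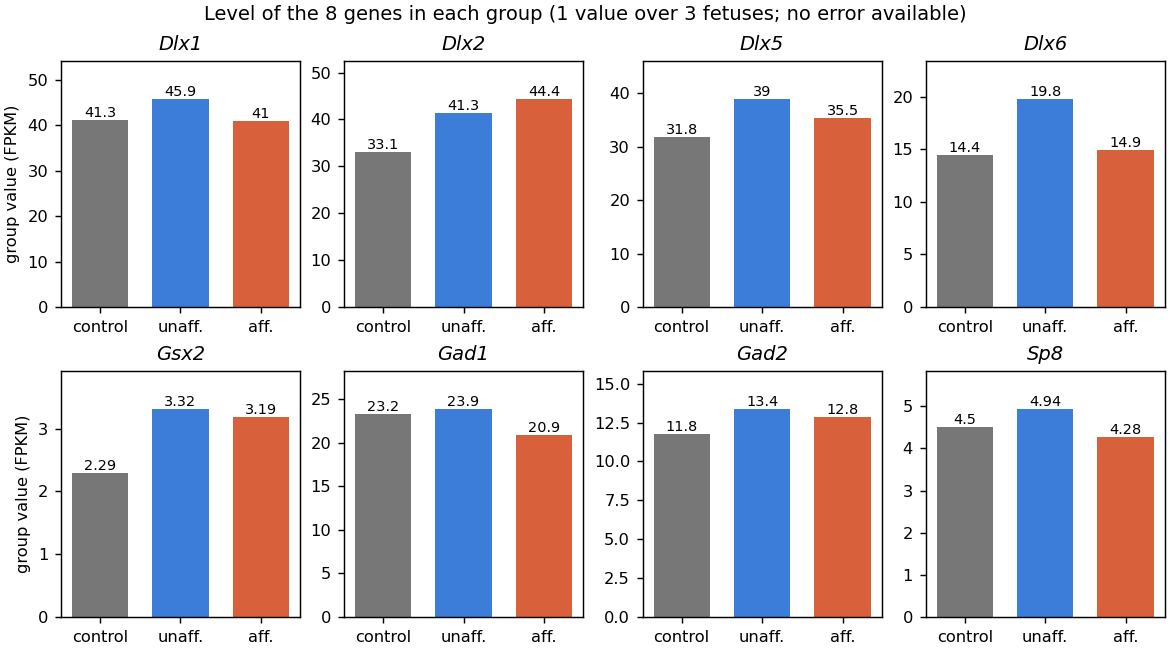
Group value in FPKM (y axis, from 0, a scale of its own in each panel) of each of the 8 genes in the control, unaffected and affected groups, 1 value over 3 fetuses per bar and no error. Dlx2 alone is highest in affected fetuses, at 44.4 FPKM, while the other 7 genes are highest in unaffected fetuses.

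In control and unaffected fetuses the levels had the same order, with Gsx2 lowest, then Sp8, Gad2, Dlx6, Gad1, Dlx5 and Dlx2, and Dlx1 highest. In affected fetuses the order differed only in Dlx1, at 41.0 FPKM, which came below Dlx2, at 44.4 FPKM. Whether neighbours in this order differ beyond the spread between fetuses could not be tested.

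The first comparison asked how exposed fetuses without defects differed from control fetuses. A difference of at least 0.32 on the log2 scale, which is a level at least 25% higher or the inverse of that ratio lower, was counted as past the limit, and this is a description of size, not a test. Gsx2 and Dlx6 were higher past this limit in unaffected fetuses, where 5.7% of 15516 loci were higher by as much, and none of the 8 genes was lower by as much, against 7.2% of loci. With the groups scaled to the same summed FPKM over all loci, neither was past the limit, Gsx2 being at 0.20 and Dlx6 at 0.12. Dlx2 missed the limit narrowly, with a ratio of 1.248, and Dlx5 followed with a ratio of 1.23. All 8 genes were higher in unaffected fetuses, against 51.7% of loci, although under that scaling 6 of them (Dlx1, Dlx2, Dlx5, Gad1, Gad2 and Sp8) were lower, and with the sum over loci below 10000 FPKM Gad1 was lower. The median of the 8 genes was 0.24 on the log2 scale, beside 0.01 over all loci.

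The second comparison set affected against control fetuses. Dlx2 and Gsx2 were higher past the limit, where 12.7% of 15521 loci were, and none of the 8 genes was lower past it, against 11.7%. In this comparison 5 genes were above 0 and 3 (Dlx1, Gad1 and Sp8) below, against 52.9% of loci above 0, and the median was 0.08 beside 0.02 over all loci. Scaled to Gapdh and Ywhaz, Dlx6 was also below 0, and with the sum over loci below 10000 FPKM all 8 were above 0. Gsx2 was the only one past the limit against control in both exposed groups, a pattern found at 370 of 15502 loci (2.39%), and with the same summed FPKM it missed the limit in unaffected fetuses. Since both comparisons share the control group, the direction in one is not independent of the direction in the other.

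The third comparison addressed what distinguished affected from unaffected fetuses after the same dose. Dlx6 was lower past the limit in affected fetuses, with a log2 difference of -0.41 and a ratio of 0.751, where 18.6% of 15518 loci were lower by as much. None was higher past it, against 20.9% of loci. Dlx2 alone was above 0, at 0.10, and the other 7 genes were below, against 48.8% of loci, from -0.06 for Gsx2 and Gad2 to -0.41 for Dlx6, with a median of -0.15 beside 0.01 over all loci. Under the same summed FPKM over all loci, and under the sum over loci below 10000 FPKM, 7 of the 8 were above 0 instead, Dlx6 remaining below at -0.10 and -0.15.

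**Figure D2:**
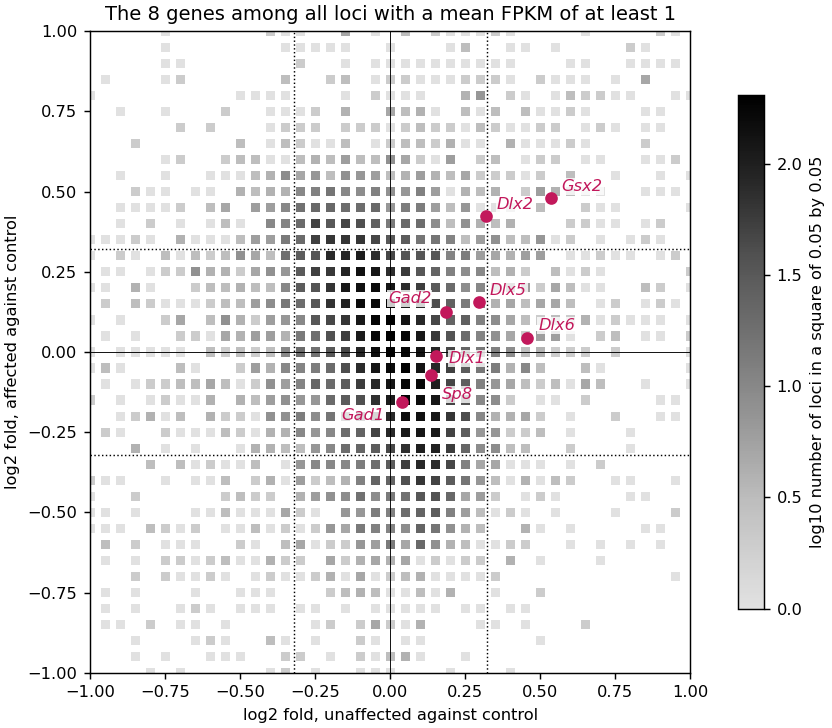
Log2 difference from control of the 8 genes (red points) in unaffected (x axis) and affected (y axis) fetuses, over a grey map of the number of loci with a mean of at least 1 FPKM in each square (log10 scale). Dotted lines mark the limit of 0.32 in each direction, values beyond 1 in either direction are not drawn, and both axes share the control group. Gsx2 lies past the limit on both axes, Dlx2 on the y axis and Dlx6 on the x axis.

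The scaling between groups bears on each direction given here. A few loci of very high FPKM without a gene name took up much of the summed values, the 3 most abundant holding 34.3% in the control group, 41.2% in the unaffected group and 38.1% in the affected group. Scaling to the same summed FPKM moved the median of all loci to -0.33 for unaffected against control, to -0.01 for affected against control and to 0.32 for affected against unaffected. The share of loci past the limit then became 2.2% higher and 51.7% lower in the first comparison and 49.8% higher and 4.21% lower in the third. Without the loci of 10000 FPKM or more in the sum, the medians were -0.08, 0.19 and 0.27, and the shares were 31.7% higher and 5.06% lower in the second comparison and 44.6% higher and 5.35% lower in the third. Scaled to Gapdh and Ywhaz, the shares were 6.97% and 20.1% in the second comparison and 16% and 24.6% in the third. Gapdh itself was at 442, 477 and 490 FPKM and Ywhaz at 308, 297 and 319. Set against the median of all loci, which no such scaling changes, all 8 genes were higher in unaffected than in control fetuses, 5 were higher in affected than in control fetuses and 1, Dlx2, was higher in affected than in unaffected fetuses.

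Ratios between genes of 1 group are free of this scaling. The summed level of the 4 Dlx genes was 121 FPKM in the control group, 146 in the unaffected group and 136 in the affected group, and that of Gad1 and Gad2 was 35.0, 37.3 and 33.7 FPKM. The ratio of the Dlx sum to the Gad sum was 3.45 in the control group, 3.92 in the unaffected group and 4.03 in the affected group. The ratio of Dlx2 to Gad1 was 1.43, 1.73 and 2.13, and that of Gsx2 to Sp8 was 0.509, 0.672 and 0.746. Gad1 exceeded Gad2 in each group, with a ratio of 1.97 in the control group, 1.79 in the unaffected group and 1.62 in the affected group. Such ratios are not free of a trend with transcript length. With the running median over length subtracted, Gad1 and Gad2 differed from control by 0.002 and 0.24 in unaffected fetuses on the log2 scale. In affected fetuses these differences were -0.13 and 0.003, so the ratio was then lowest in unaffected fetuses.

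**Figure D3:**
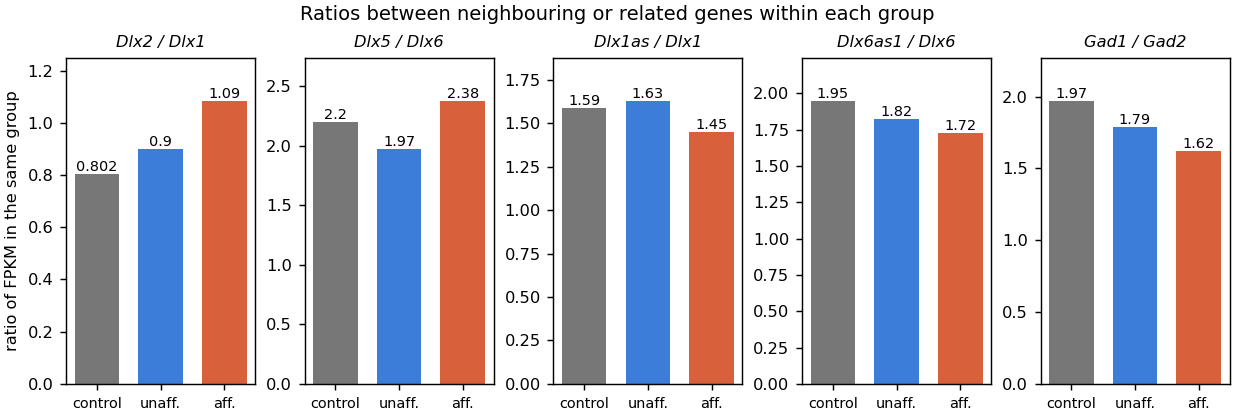
Ratio of the FPKM of 2 genes within each group (y axis, from 0, a scale of its own in each panel), 1 value over 3 fetuses per bar and no error. Dlx2 passes Dlx1 only in affected fetuses, at 1.09, and Gad1 to Gad2 is 1.97 in control and 1.62 in affected fetuses. The Dlx1 locus runs beyond the annotated gene. Transcript length is not corrected for, and with its trend removed the lowest Gad1 to Gad2 ratio is that of unaffected fetuses.

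Antisense transcripts lie beside both Dlx pairs. The antisense locus Dlx1as was more abundant than Dlx1, at 65.5 FPKM in the control group, 74.9 in the unaffected group and 59.3 in the affected group. The antisense locus Dlx6as1 (Dlx6os1 in RefSeq), which overlaps a known Dlx5 and Dlx6 enhancer, was at 28.2, 36.1 and 25.7 FPKM and so more abundant than Dlx6. Like Dlx1 and Dlx6, both were highest in unaffected fetuses. In affected fetuses they were below control, as was Dlx1, by -0.14 for Dlx1as and -0.13 for Dlx6as1 on the log2 scale, differences that turn positive with the sum over loci below 10000 FPKM. Against unaffected fetuses both were lower past the limit in affected fetuses, at -0.34 and -0.49, against 18.6% of loci. With the same summed FPKM they were at -0.03 and -0.18, and with the sum over loci below 10000 FPKM at -0.08 and -0.23, within the limit. The ratio of Dlx1as to Dlx1 was 1.59, 1.63 and 1.45 and that of Dlx6as1 to Dlx6 was 1.95, 1.82 and 1.72. The strand setting of the counting is not given in the sources used here. Of the 5396 exon bases of Dlx1, 335 are shared with Dlx1as on the opposite strand, and of the 2375 of Dlx6, 104 are shared with Dlx6os2 and 0 with Dlx6os1, so reads from the shared bases may count for either gene.

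The other Dlx genes and antisense loci were all low, below 1 FPKM in every group. Dlx3, a gene of ectoderm and placenta, was at 0.0539, 0.0390 and 0.105 FPKM. Dlx4 was at 0.00851 FPKM in control, listed at 0 in unaffected and at 0.0105 in affected fetuses, and the locus A730090H04Rik, an older name of the antisense gene Dlx4os, at 0.00855 and 0.0158 FPKM and listed at 0 in affected fetuses. Dlx6as2 was at 0.917, 0.996 and 0.865 FPKM. Among the 28 pairs of the 8 genes the longest stretch shared by their transcripts was 35 bases, and 0 pairs shared 50 or more, the read length, so no read of full length could match a pair of them without a mismatch.

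Other genes of the same lineage were taken from lists, whose counts of higher and lower genes under another scaling are counts past the limit. Of 23 other transcription factors listed for the ventral telencephalon, some of which also act elsewhere, 21 had a mean of at least 1 FPKM. In unaffected fetuses 3 of these were higher past the limit, Gsx1, Vax1 and Isl1, and 0 were lower, against 5.7% and 7.2% of loci, with a median of 0.07. Gsx1, a paralogue of Gsx2 in the same progenitors, was at 0.867, 1.21 and 1.06 FPKM, differences of 0.48 and 0.29 from control. Gsx1 reached a mean of 1 FPKM only through the exposed groups. Vax1, a homeobox gene of the ventral forebrain, was at 4.28, 5.76 and 5.30 FPKM, differences of 0.43 and 0.31. Isl1, which acts in striatal projection neurons, was at 11.3, 14.6 and 11.0 FPKM, so in affected fetuses it lay near the control level, like Dlx6. In affected fetuses 8 of the 21 were higher past the limit and 0 lower, with a median of 0.24, beside the background of 12.7% of loci and a median of 0.02. The count in unaffected fetuses was 0 higher and 10 lower with the same summed FPKM, and that in affected fetuses was 3 higher and 1 lower when scaled to Gapdh and Ywhaz and 16 higher with the sum over loci below 10000 FPKM. Six3, a homeobox gene of the forebrain and eye, was at 7.75, 8.16 and 11.2 FPKM, and Helt at 0.848, 1.06 and 1.20 FPKM. Like Gsx1, Helt reached a mean of 1 FPKM only through the exposed groups, which favours its count as higher than control.

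Prox1 (3.43, 2.897 and 4.45 FPKM), Nr2f1 (96.2, 83.8 and 124 FPKM) and Nr2f2 (18.1, 16.5 and 23.0 FPKM) were lowest in unaffected and highest in affected fetuses. All these genes mark caudal eminence interneurons, but Nr2f1 and Prox1 are also expressed in dorsal cortex or hippocampus. Against unaffected fetuses, 5 of the 21 were higher past the limit in affected fetuses, a share near the 20.9% of all loci, and 1, Isl1, was lower, against 18.6%. With the same summed FPKM, or the sum over loci below 10000 FPKM, 16 were higher and 0 lower.

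Of 8 factors of the medial eminence and its interneurons, all above 1 FPKM, Nkx2-1 and Lhx8 were higher past the limit in unaffected fetuses, against 5.7% of loci, and 0 lower, against 7.2%, although with the same summed FPKM 5 others were lower past it. Lhx8, needed for cholinergic neurons of the basal forebrain, was at 3.23 FPKM in the control group, 6.78 in the unaffected group and 2.93 in the affected group. Nkx2-1, which specifies the medial eminence, was at 3.51, 5.67 and 3.69 FPKM. Both were highest in the unaffected group, as were Dlx5 and Dlx6, and near control in affected fetuses. Lhx6, the factor of migrating medial interneurons that Nkx2-1 switches on, was at 22.2, 24.8 and 21.7 FPKM, within the limit. Satb1, which acts in maturing interneurons, was instead lowest in unaffected fetuses, at 14.4, 11.6 and 16.9 FPKM. Sox6 was at 4.80, 4.65 and 6.30 FPKM and the only one of the 8 past the limit in affected against control fetuses, against 12.7% of loci, a difference of 0.39 that was 0.29 and within the limit when scaled to Gapdh and Ywhaz. With the sum over loci below 10000 FPKM 3 of the 8 were higher past the limit there. Median differences were -0.06 and 0.07 against control.

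None of 5 genes that package, take up or break down GABA was past the limit in any of the 3 comparisons with the deposited values. Over all loci 5.7%, 12.7% and 20.9% were higher and 7.2%, 11.7% and 18.6% lower. With the same summed FPKM 3 of the 5 were lower in unaffected than in control fetuses and 2 higher in affected than in unaffected fetuses. With the sum over loci below 10000 FPKM these counts were 1 and 2. Slc32a1, the transporter that loads GABA into vesicles, was at 18.7, 20.7 and 19.2 FPKM, and Slc6a11, a GABA uptake transporter, at 15.1, 12.5 and 13.7 FPKM. Of 17 interneuron markers, 16 were above 1 FPKM, of which 1 (Pnoc) was higher past the limit in unaffected fetuses, against 5.7% of loci, and 0 were lower, and 2 were higher and 2 lower in affected fetuses, shares like those of all loci (12.7% higher and 11.7% lower). The medians were 0.00 and -0.01. In unaffected fetuses 0 were higher and 9 lower with the same summed FPKM, and with the sum over loci below 10000 FPKM 5 were higher and 1 lower in affected fetuses. The peptide gene Sst was at 243, 298 and 249 FPKM, and Pnoc at 2.98, 3.78 and 2.68 FPKM. Cxcr4 and Ackr3 (Cxcr7), the chemokine receptors that steer migrating interneurons, were at 44.1, 49.7 and 34.2 FPKM and at 18.0, 21.1 and 14.8 FPKM. Calb2 was at 34.9, 32.0 and 24.5 FPKM. Reln, which Cajal-Retzius cells and some interneurons make, was highest in affected fetuses, at 22.7, 19.9 and 31.8 FPKM. Vip was listed at 0 in control and below 0.01 FPKM in the exposed groups.

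Of 14 striatal projection neuron genes, 12 were above 1 FPKM. In unaffected fetuses 0 were past the limit, against 5.7% of loci higher and 7.2% lower, and in affected fetuses, where 12.7% of loci were higher and 11.7% lower, 1, the dopamine receptor Drd2 (4.92, 4.55 and 6.25 FPKM), was higher and 1, the peptide gene Tac1 (20.3, 23.2 and 14.9 FPKM), lower. In unaffected fetuses 10 of the 12 were lower with the same summed FPKM. In affected fetuses 0 were higher under that scaling or when scaled to Gapdh and Ywhaz, and 7 with the sum over loci below 10000 FPKM. The phosphodiesterase Pde10a was at 11.3, 10.4 and 14.2 FPKM. Medians were -0.10 and 0.16 against control. These striatal genes were detected in tissue that the methods give as cortex, and the share of striatum in each dissection was not tested.

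**Figure D4:**
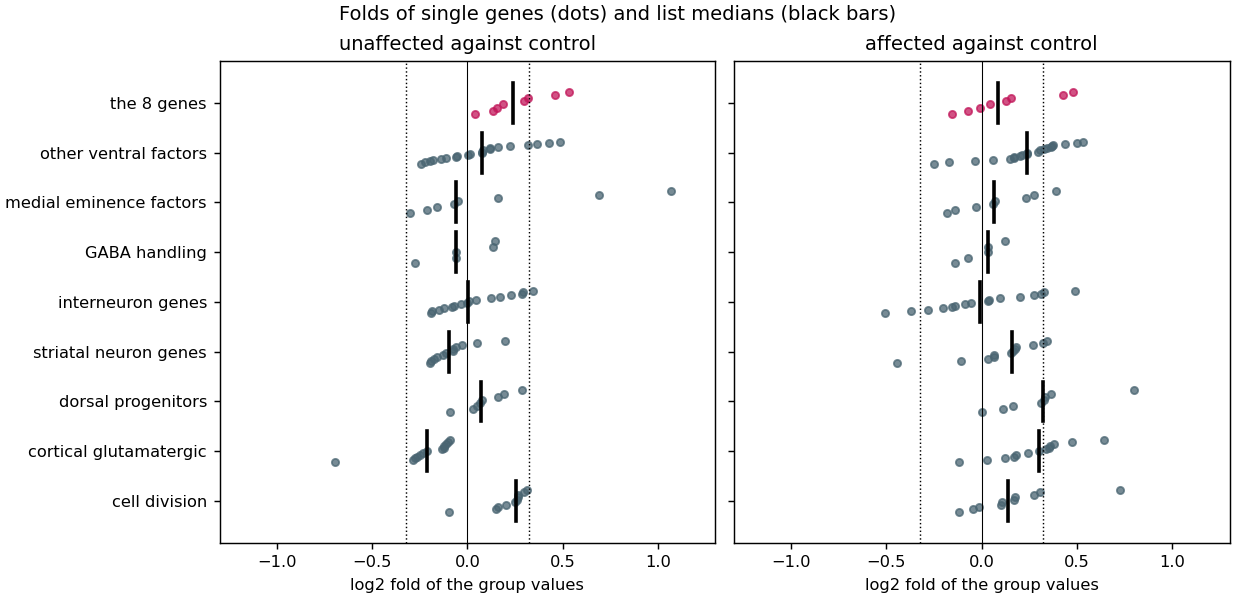
Log2 difference from control (x axis) of single genes with a mean of at least 1 FPKM (dots) in unaffected (left) and affected (right) fetuses, in rows for the 8 genes and 8 gene lists, with the median of each row as a black bar and the limit of 0.32 as dotted lines. The vertical place of a dot within its row carries no value. The 8 genes have a median of 0.24 on the left and 0.08 on the right, and the cortical glutamatergic row lies at -0.21 and 0.30.

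All 13 cortical glutamatergic neuron genes were lower than control in unaffected fetuses (median -0.21), where 51.7% of loci were above 0, and 12 of 13 were higher in affected fetuses (median 0.30), where 52.9% were. In the latter 6 were past the limit, against 12.7% of loci, and 9 were higher past it in affected than in unaffected fetuses (median 0.46), against 20.9%. Over the loci with a known transcript length, Spearman's rho between length and log2 difference was -0.31 in unaffected and 0.30 in affected fetuses, and the part of length in this list was not tested. The lower values in unaffected fetuses held under each scaling run here, while in affected fetuses Neurod6 was below 0 when scaled to Gapdh and Ywhaz or to the same summed FPKM, and Slc17a6, the exception, was above 0 with the sum over loci below 10000 FPKM. Neurod6, a factor of cortical excitatory neurons, was at 409, 378 and 416 FPKM. Scaled to Gapdh and Ywhaz, 2 of the 13 were past the limit in affected fetuses, and 10 with the sum over loci below 10000 FPKM. Tbr1 was at 75.7, 62.1 and 98.3 FPKM, Sox5 at 15.6, 13.0 and 24.3 FPKM and Bcl11b, also expressed in striatal neurons, at 32.7, 28.2 and 45.5 FPKM. Of 9 dorsal progenitor genes, 8 were above 1 FPKM. Of these, 7 were above control in unaffected fetuses, the direction of the 8 genes, with 0 past the limit and a median of 0.07 that turns negative with the same summed FPKM or the sum over loci below 10000 FPKM. In affected fetuses 4 were higher past the limit, against 12.7% of loci, with a median of 0.32. This count was 1, Neurog1, when scaled to Gapdh and Ywhaz, 2 with the same summed FPKM and 6 with the sum over loci below 10000 FPKM. Neurog1 was at 0.952, 1.16 and 1.66 FPKM, Emx2 at 12.6, 13.2 and 16.2 FPKM and Lhx2 at 110, 103 and 138 FPKM. Neurog1 reached a mean of 1 FPKM only through the exposed groups, which favours its count as higher than control. The share of ventral and dorsal tissue in the samples was not tested.

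Among cell division genes, 9 of 10 were above control in unaffected fetuses, against 51.7% of loci (median 0.25), and 7 of 10 in affected fetuses, against 52.9% (median 0.14), although with the same summed FPKM 0 of 10 were above control in unaffected fetuses. In unaffected fetuses 0 were past the limit, against 5.7% of loci higher and 7.2% lower, and in affected fetuses 1, Mki67, was higher, against 12.7%, or 5 with the sum over loci below 10000 FPKM. Cdk1 was at 17.5, 21.8 and 17.0 FPKM, Mcm2 at 17.3, 21.3 and 21.4 FPKM and Mki67 at 6.49, 6.08 and 10.7 FPKM. Of 10 radial glia genes, 1 was higher past the limit in unaffected fetuses, against 5.7% of loci, Hes1 (7.27, 9.68 and 9.09 FPKM). In affected fetuses, where 12.7% of loci were higher and 11.7% lower, 4 were higher, among them Notch1 (5.43, 4.87 and 8.01 FPKM) and Nes (26.8, 27.3 and 36.1 FPKM), and 2 lower, with Fabp7 at 2015, 2151 and 1352 FPKM. Scaled to Gapdh and Ywhaz, 2 were higher and 3 lower, and with the sum over loci below 10000 FPKM 6 and 1.

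Markers of other cells also differed between the groups. Of 9 blood symbols 8 were found, in 6 loci that held summed levels of 5814, 7522 and 3650 FPKM, all 6 higher past the limit in unaffected than in control fetuses, against 5.7% of loci, and all 6 lower in affected than in unaffected fetuses, against 18.6%. With the same summed FPKM these counts were 2 and 4, and with the sum over loci below 10000 FPKM 3 and 4, with the direction of all 6 loci unchanged in both comparisons under these scalings. Among the 6, Hbb-y, at 0.953, 3.34 and 2.56 FPKM, reached a mean of 1 FPKM only through the exposed groups. Choroid plexus markers, 6 of 7 above 1 FPKM, summed to 998, 1323 and 1111 FPKM, with Ttr the bulk of it. In each comparison 1 was higher past the limit, against 5.7%, 12.7% and 20.9% of loci. All 6 were above control in both exposed groups, with medians of 0.26 in unaffected and 0.18 in affected fetuses, beside 0.24 and 0.08 for the 8 genes. With the same summed FPKM 0 were past the limit and 1 of 6 was above control in unaffected fetuses, and with the sum over loci below 10000 FPKM 4 were higher past the limit in affected fetuses. Clic6, one of them, was at 4.48, 5.36 and 8.31 FPKM. Of 9 thalamus and hypothalamus markers 4 were above 1 FPKM, of which Tcf7l2 was at 4.18, 2.29 and 2.39 FPKM and Fezf1 at 0.800, 1.72 and 1.74 FPKM. The hypothalamic genes of the list included Pomc at 0.907, 1.34 and 0.966 FPKM and Otp at 0.446, 0.692 and 0.595 FPKM, both highest in unaffected fetuses, while Hcrt, Pmch and Sim1 were below 0.3 FPKM in all groups. Endothelial, microglial and meningeal lists of 6 genes each summed to 65.2, 65.9 and 67.0 FPKM, to 33.1, 32.9 and 28.5 FPKM and to 73.1, 67.3 and 64.5 FPKM. Of the 6 endothelial genes, 1 was higher past the limit in affected than in control fetuses (median 0.27), against 12.7% of loci. Against unaffected fetuses 3, Cdh5, Flt1 and Tek, were higher past it (median 0.32), against 20.9%. Cldn5 and Esam were lower within the limit, at -0.18 and -0.15 against unaffected and -0.12 and -0.07 against control fetuses. The count of 3 was 2 when scaled to Gapdh and Ywhaz. It was 4 with the same summed FPKM or the sum over loci below 10000 FPKM, where all 6 were above 0. Of the 6 microglial genes, 2 were lower past the limit in affected than in control fetuses, against 11.7%, and of the 6 meningeal genes 1. Against control, the endothelial count in affected fetuses was 0 when scaled to Gapdh and Ywhaz and 4 with the sum over loci below 10000 FPKM. The microglial list had 2 higher and 1 lower with that sum, and the meningeal list 3 lower when scaled to Gapdh and Ywhaz. In unaffected fetuses each of these 3 lists had 4 genes lower with the same summed FPKM. The part of these cells in the values of the 8 genes was not tested.

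Over 3 groups a pattern is only a pair of differences from control, and loci close to a gene in this plane were counted as a description. For Dlx2 the 5 named loci nearest by Euclidean distance were Ulk4 at 0.022, Fam122b at 0.047, Rad54l and Stil at 0.057, and Rsph3b at 0.059 log2 units. Ulk4 was at 1.56, 1.98 and 2.09 FPKM and Rad54l, a recombination repair gene, at 2.05, 2.60 and 2.65 FPKM. Of 15446 loci, 53 lay within 0.1 log2 units of Dlx2, 23 of Gsx2, 52 of Dlx6 and 143 of Dlx5. By contrast 454 lay that close to Gad2, 1046 to Dlx1, 1398 to Sp8 and 1696 to Gad1, whose small differences were common in the table.

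Transcript length moved with the differences over all loci. Across 12542 loci with a GENCODE length, 80.7% of 15535, Spearman's rho between length and log2 difference was -0.31 for unaffected against control, 0.30 for affected against control and 0.36 for affected against unaffected. Genes are not independent replicates, and no p was computed. The 8 genes had median transcript lengths from 808 nucleotides for Dlx1 to 3232.5 for Gad2. With the running median over length subtracted, Gsx2 was at 0.50 and 0.51 against control, Dlx2 at 0.30 and 0.43 and Dlx6 at 0.42 and 0.10. Between affected and unaffected fetuses Dlx6 then missed the limit, at -0.31, and Gsx2, at 0.03, was above 0 beside Dlx2, at 0.14.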

How the data were processed

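RNA-seq libraries (TruSeq RNA, paired reads of 50 bases) came from 9 fetuses, 3 per group. The methods name STAR with default parameters and also Bowtie and Tophat for alignment to mm10, and the submitters' processing notes name Bowtie2 2.2.4.0, Cufflinks and Cuffdiff. RNA was extracted with RNeasy columns per the methods and with Trizol per the labels. The authors deposited FPKM, estimated by Cuffdiff as 1 value per locus and group, for 27095 loci, of which 3871 have no gene name. The deposited table also holds the authors' fold changes, p-values and q-values for 3 comparisons, none of which was used here. It has 0 columns of single fetuses. Groups followed the sample labels.

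Log2 ratios of group FPKM were computed without a pseudocount, with Python 3.11.15, pandas 2.3.3 and numpy 2.4.6. A difference of at least 0.32 on the log2 scale was counted as past the limit. The background was the loci with a mean of at least 1 FPKM, without 18 loci whose estimate had failed. The genes and 17 lists were chosen with earlier results of these data known. Genes outside the 8 were named from the other Dlx and antisense loci, the 3 largest differences per list and comparison, the 2 reference genes and the 5 loci nearest to Dlx2. Lhx6, Neurod6, Slc17a6, Otp, Cldn5, Esam and the markers near 0 were named after their values had been seen. A few genes that this rule selects are not reported here. The procedure was tested on simulated data.

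Fragment counts are unknown, so no interval could be given. Among 3413 loci below 0.3 FPKM in both groups, the 8 most frequent ratios of affected to control values were 0.616 to 0.885, and among 3397 such loci those of unaffected to control were 0.831 to 0.962. These ranges overlap and give no order of depth. The 3 fetuses per group limit the precision of every value, and whether they came from separate litters is not given in the sources used here.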

Additional observations from a re-analysis of the deposited data

How the results depend on the processing

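No paired analysis was possible because the table holds 1 value per group and no columns of single fetuses, and for the same reason leaving out each fetus in turn could not be run. The count of the 8 genes past the limit changed with the limit itself. In unaffected against control fetuses it was 2 at the limit used here, 6 at 1.1-fold, all higher, and 0 at 1.5-fold. Of all loci 19.5% were higher and 21.1% lower at 1.1-fold, and 2.63% and 3.26% at 1.5-fold. In affected against control fetuses the count was 2, 4 and 0, and in affected against unaffected fetuses 1, 5 and 0. The 4 were 3 higher and 1, Gad1, lower, beside 33.6% of loci higher and 29.1% lower. At 1.5-fold 3.67% were higher and 3.29% lower. The 5 were all lower, beside 37.3% of loci higher and 35.1% lower, and at 1.5-fold 7.39% and 5.26% were. With a mean of at least 5 FPKM, which leaves out Gsx2 and Sp8, the count was 1 in each comparison against control. These were higher, as were 2.71% of loci in unaffected and 8.91% in affected fetuses. With the groups scaled to the same summed FPKM over all loci the count was 0 in unaffected against control fetuses, and in affected against unaffected fetuses it was 1 again, but Dlx2 higher at 0.41 and no longer Dlx6 lower. The same sum over loci below 10000 FPKM, chosen after seeing the data, also gave 1 there, Dlx2 at 0.36, and 3 in affected against control fetuses, with Dlx5 added at 0.33. With the length trend removed, likewise chosen after seeing the data, the count was 0 in affected against unaffected fetuses, beside 15.2% of loci higher and 13.4% lower. For Dlx2, the difference of 0.32 in unaffected fetuses passed 1.1-fold and that of 0.42 in affected fetuses missed 1.5-fold, while under the same summed FPKM the former was -0.02. A pseudocount of 0.1 or 1, the median of all loci at 0, the same upper quartile, and scaling to Gapdh and Ywhaz changed none of the counts at the limit used here. Having no filter on low values and leaving out joined loci could not change them. All 8 genes had a mean of at least 1 FPKM and 0 were in joined loci.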
